A study of Mus musculus with 6 samples.

Results

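The genes described here serve water, urea and sodium transport in the principal cells of the kidney collecting duct. They are Aqp2, Aqp3, Aqp4, Avpr2, Slc14a2, Fxyd4, Scnn1a, Scnn1b, Scnn1g and Hsd11b2. All 10 genes were on the array, with 17 of the 56605 non-control probes, found by the gene name given in a scanner file. The genes were chosen by name with their differences between the groups already known, so their values are given as a description and without a test.

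Principal cells adjust the final volume and salt content of urine. Vasopressin binds its receptor on these cells, raises cyclic AMP and sends aquaporin-2 to the apical membrane, from where water leaves through aquaporin-3 and aquaporin-4 on the basolateral side. Aldosterone increases sodium entry through the epithelial sodium channel ENaC, and the enzyme 11-beta-hydroxysteroid dehydrogenase type 2 keeps cortisol and corticosterone away from the aldosterone receptor. Urea transporters of the Slc14a2 gene carry urea across the inner medullary collecting duct and the thin descending limb, and so help to build the concentrated interstitium of the inner medulla.

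The data were micro-array measurements of total RNA from the renal cortex of male mice aged 16 weeks, with 3 arrays in each of 2 groups. The labels give the first group as db/m, heterozygous for the diabetes mutation of the leptin receptor, and as the control. They give the second group as db/db, which is homozygous for the mutation and serves as a model of type 2 diabetes with obesity. The study's methods and the design text describe another comparison, of db/db mice given Huangqi decoction (HQD) against db/db mice without it. HQD is a water and ethanol extract of several medicinal herbs, given into the stomach, and the label text states a treatment of 8 weeks. The methods place the mice on the C57BLKS/J strain. The groups are called labelled db/m and labelled db/db here, and single arrays are named by labelled group and replicate, such as array db/m 1. The sources do not settle whether genotype or treatment separates the groups. A positive difference means a higher mean in labelled db/m. Nothing states that replicates were pooled, and the spread between arrays measures the spread between these samples only.

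Each array was read in 1 colour. Values are log2 signals after subtraction of the 75th percentile of the array, so that 0 is the level of that percentile, and levels of different probes are not comparable with each other. Between 51.6% and 59% of the probes were well above background on an array, and no member probe was saturated. Testing required a signal well above background throughout 1 group or both, which 13 of the 17 member probes met, with at least 1 probe for each gene. The brightest tested probe stands for a gene. Over the 16460 genes tested the median difference was -0.04, and 90% of the differences lay between -0.45 and 0.64. With median centring of the arrays the median of all differences was -0.22. The file of array db/m 1 holds its intensities to 3 significant digits. Array db/m 1 and array db/db 3 shared slide 1, and the other 4 arrays lay on slides of a single group each.

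The proximal tubule and podocyte markers of the cortex were well above background on all 6 arrays, at 8 of 8 and 5 of 5 genes. Of 8 principal cell markers, 7 were, and the exception was Scnn1b. The samples were bulk tissue, in which fewer cells of a type and less RNA per cell cannot be told apart. Genes with high expression in the inner medulla were also measured in these cortex samples and differed between the arrays. Their list was put together after values had been seen, so its means by array are given below as a description only.

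To show what lies before the start of the vasopressin-regulated channel and of its basolateral partner, the 250 bases upstream of Aqp2 and Aqp3 are printed from RefSeq on build GRCm38.p6, 5′ to 3′ on the strand of the gene. The Aqp2 piece is chr15:99578806-99579055 on the plus strand, and the Aqp3 piece is chr4:41098184-41098433 on the minus strand. Capitals mark matches on either strand to letters known from several kinds of site, and no matches overlap in these pieces. The letters searched were TGACG for the cyclic AMP response element half-site, AGATAA for factors of the GATA family, TGTTCT for the steroid receptor half-site, TGACTCA for the factor AP-1 and TATAAA for the TATA box.
Aqp2: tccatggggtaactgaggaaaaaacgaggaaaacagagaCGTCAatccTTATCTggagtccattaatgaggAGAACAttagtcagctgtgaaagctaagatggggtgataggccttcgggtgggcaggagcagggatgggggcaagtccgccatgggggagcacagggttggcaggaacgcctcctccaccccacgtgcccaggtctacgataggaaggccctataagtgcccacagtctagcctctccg
Aqp3: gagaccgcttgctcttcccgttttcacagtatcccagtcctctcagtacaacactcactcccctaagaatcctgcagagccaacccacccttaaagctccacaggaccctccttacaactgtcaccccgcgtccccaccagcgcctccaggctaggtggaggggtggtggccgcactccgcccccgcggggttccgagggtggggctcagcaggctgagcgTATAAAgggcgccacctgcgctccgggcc

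Counted from the start of the gene, the Aqp2 piece held the cyclic AMP half-site at -211 to -207, the GATA motif at -202 to -197 and the steroid receptor half-site at -179 to -174, all on the reverse strand. The Aqp3 piece held a TATA box at -29 to -24 and none of the other motifs. Promoter pieces were in the table used for 6 of the 10 genes, which were Aqp2, Aqp3, Avpr2, Fxyd4, Scnn1b and Scnn1g. The TGACG half-site was in 1 of these 6 and in 17.8% of 32851 promoters of the same length, and the GATA motif was in 1 of 6 and in 9.99%. TGTTCT was in 2 of 6, Aqp2 and Avpr2, and in 16.1% of all promoters. TATAAA was in 2 of 6, Aqp3 and Avpr2, and in 12.4% of all. In Avpr2, TATAAA shared 1 base with TGTTCT. The AP-1 motif was in 0 of 6 and in 4.46% of all. These matches describe letters only.

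The 10 genes fell into groups that differed in how far their arrays spread. Slc14a2, Aqp4, Fxyd4, Aqp2 and Avpr2 were highest on arrays db/m 1 and db/m 3. Aqp3, Scnn1a, Scnn1g and Hsd11b2 varied less and had lower means in labelled db/m, with a change of sign under another scaling or the slide block for all of them except Scnn1g. In all, 6 genes had a positive difference and 4 a negative one, with a median of 0.40. Labelled db/m was higher without any overlap for 1 of 10 genes, Slc14a2 on a dim probe, against 7.15% of all tested genes. No gene was lower on all 3 labelled db/m arrays, against 15.7% of all tested genes. These counts come from the contrast known when the genes were chosen, and nothing is read from them. The differences of 7 of the 10 genes lay between the 5th and 95th percentiles of all genes.

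**Figure D1:**
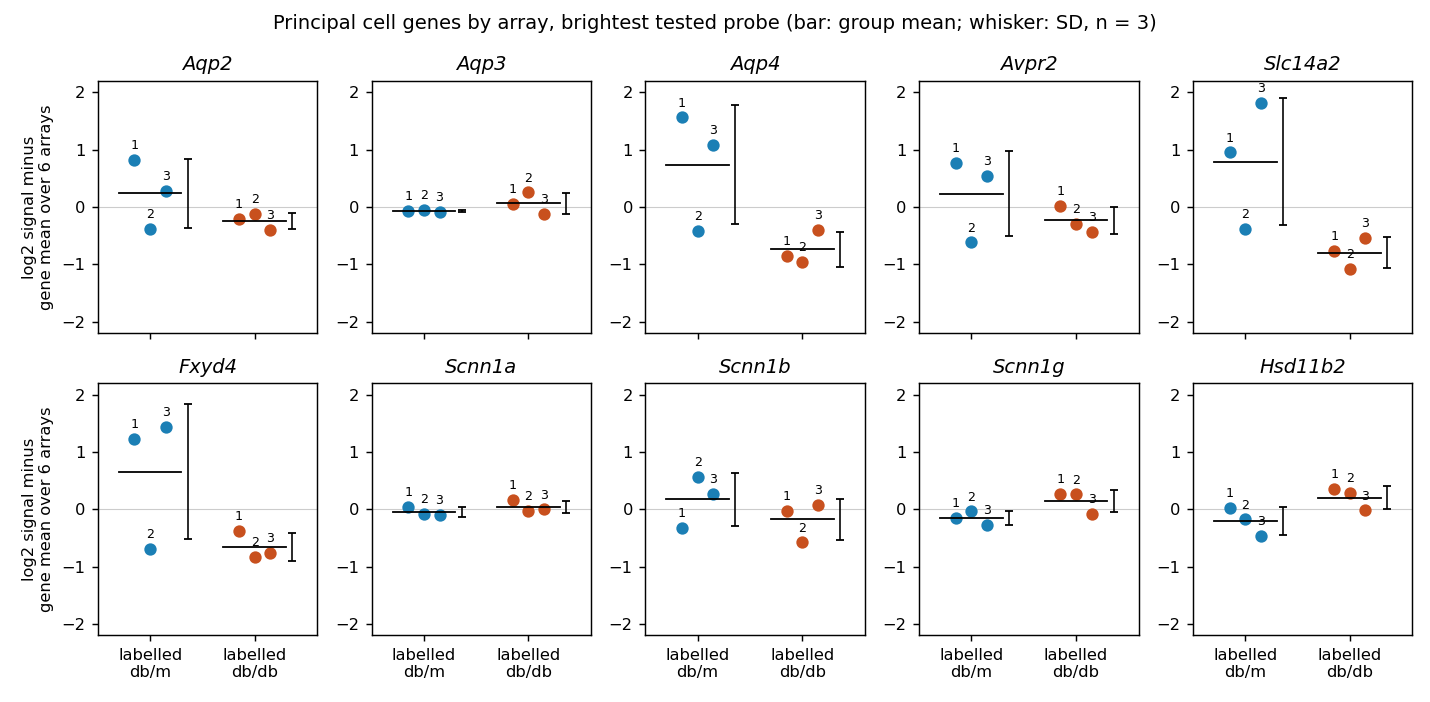
Log2 signal of the brightest tested probe of each of the 10 genes, minus its mean over the 6 arrays, for the 3 arrays of each labelled group. Points are arrays with their replicate number, horizontal bars are group means and whiskers are the SD (n = 3). Array db/m 2 lay inside the range of the labelled db/db arrays for Aqp2 and Fxyd4 and below it for Avpr2. Aqp3 and Scnn1a had narrow ranges.

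Avpr2 encodes the V2 vasopressin receptor, which sets the water permeability of the principal cell. Its log2 signal was 2.64, 1.26 and 2.41 in labelled db/m and 1.90, 1.59 and 1.45 in labelled db/db. Arrays db/m 1 and db/m 3 were the highest and array db/m 2 was the lowest of all 6, so that the groups overlapped. The difference was 0.46 ± 0.36 (SE, n = 3 per group). It was 0.89 without array db/m 2 and 0.19 without array db/m 1.

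Aqp2 encodes the water channel that vasopressin moves into the apical membrane. Its log2 signal was 4.58, 3.37 and 4.02 in labelled db/m and 3.55, 3.63 and 3.35 in labelled db/db. The labelled db/db arrays lay within 0.28 of each other, whereas labelled db/m spanned from the highest array to the second lowest. The group means were 3.99 ± 0.60 and 3.51 ± 0.14 (SD, n = 3), and the difference was 0.48 ± 0.29 (SE). Without array db/m 2 it was 0.79, and without array db/m 1 it was 0.19. The probe is at chromosome 15 from 99412578 to 99413554 on the plus strand of mm9, the build of the scanner files.

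Aqp3 encodes a basolateral channel for water and glycerol. Its log2 signal was 4.31, 4.33 and 4.29 in labelled db/m and 4.43, 4.63 and 4.26 in labelled db/db. The labelled db/m arrays were close to each other, with an SD of 0.02, and lay inside the range of labelled db/db. The difference was -0.13 ± 0.13 (SE), and it was 0.010 after quantile normalization and 0.055 with slide as a block. Aqp2 and Aqp3 thus had different array orders, and array db/m 1 was the highest for Aqp2 and under 3 other arrays for Aqp3.

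Aqp4 encodes another basolateral water channel, and 4 probes measured it. The brightest gave 2.76, 0.78 and 2.28 in labelled db/m and 0.34, 0.24 and 0.80 in labelled db/db. Array db/m 2 fell just under the highest labelled db/db array, and the difference was 1.48 ± 0.49 (SE). The second probe gave 0.77, -0.83 and 0.44 against -1.26, -1.43 and -0.92. On this probe the groups did not overlap, and its difference was 1.33 ± 0.41 (SE). Both probes carry the accession of the same curated transcript and ordered arrays db/m 1 and db/m 3 above array db/m 2.

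The third Aqp4 probe, designed on a predicted transcript, gave -2.58, -0.59 and -2.02 in labelled db/m and -2.56, -2.61 and -2.17 in labelled db/db. Its highest array was array db/m 2, which was the lowest labelled db/m array on the other tested probes. The difference was 0.71 ± 0.48 (SE). The fourth probe, on another predicted transcript, stayed under the threshold for background on every array. Without array db/m 2 the difference of the brightest probe was 2.06, and without array db/m 1 it was 1.07.

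Slc14a2 encodes the urea transporters of the UT-A family, and its 4 probes spread along the gene on chromosome 18 of mm9, on the minus strand. The only tested probe, from 78379981 to 78380040, gave -1.35, -2.69 and -0.49 in labelled db/m and -3.07, -3.39 and -2.84 in labelled db/db. All 3 labelled db/m arrays were above all 3 labelled db/db arrays, with a gap between array db/m 2 and array db/db 3 that was small beside the spread of labelled db/m. The difference was 1.59 ± 0.52 (SE), and it was 2.18 without array db/m 2 and 1.08 without array db/m 3.

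The probe from 78342911 to 78342970 carries the accession of another Slc14a2 transcript and had the widest range of the member probes. Its deposited intensity was 16000, 13.4 and 7495 in labelled db/m and 3063, 27.4 and 1679 in labelled db/db. It was not well above background on array db/m 2 or array db/db 2, and was bright on the other 4 arrays. A second probe of that transcript, from 78352254 to 78352313, had the same 2 dim arrays, with intensities of 1080, 16.7 and 505.9 against 235.5, 13.6 and 155.6. Each group thus held 1 array on which these probes were not well above background, so neither probe was tested and no fold change is given. The probe from 78402497 to 78402556 was well above background on no array.

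**Figure D2:**
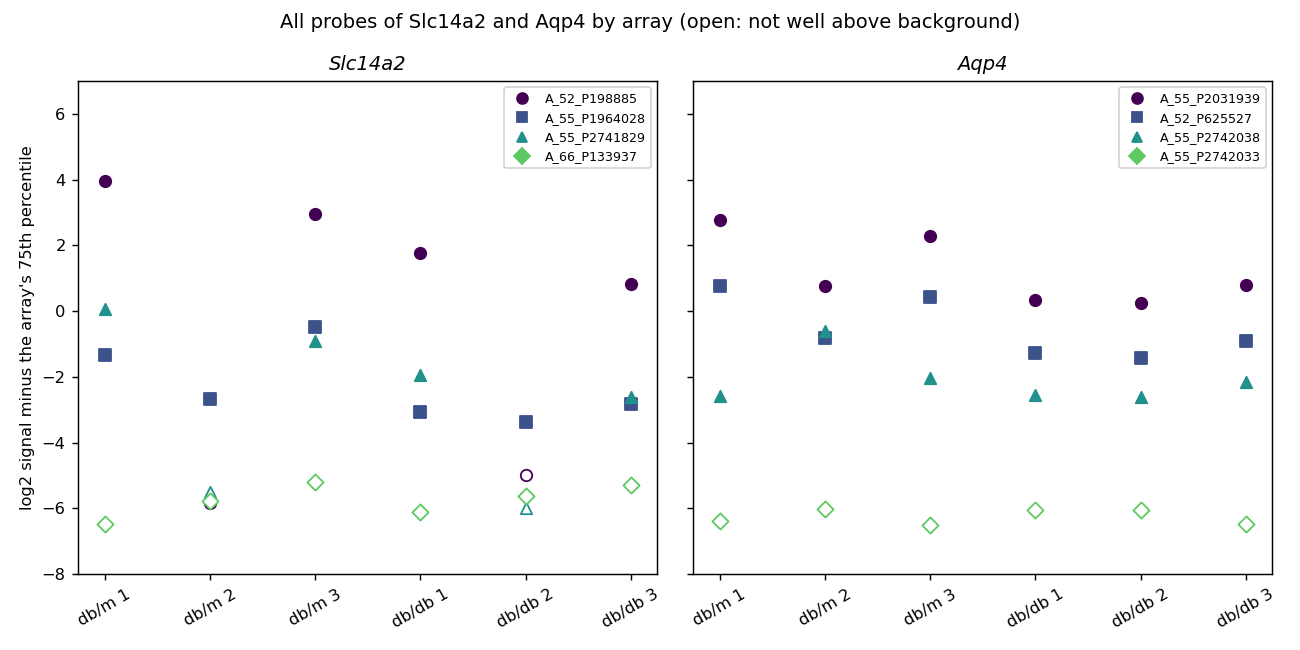
Log2 signal, minus the 75th percentile of the array, of the 4 Slc14a2 probes and the 4 Aqp4 probes on each of the 6 arrays (replicates of labelled db/m and labelled db/db). Filled symbols are well above background and open symbols are not. A pair of Slc14a2 probes dropped to background on replicate 2 of both groups, while the tested probe A_55_P1964028 was measured on all 6 arrays.

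Fxyd4 encodes a small protein, also called CHIF, that raises the affinity of the sodium pump for sodium in the collecting duct. Its log2 signal was 5.68, 3.76 and 5.90 in labelled db/m and 4.07, 3.62 and 3.70 in labelled db/db. Array db/m 2 lay inside the labelled db/db range, while arrays db/m 1 and db/m 3 were above every other array. The difference was 1.32 ± 0.54 (SE). It was 1.99 without array db/m 2 and 0.93 without array db/m 3.

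The 3 subunits of ENaC are encoded by Scnn1a, Scnn1b and Scnn1g. Scnn1a, the alpha subunit, gave 4.33, 4.19 and 4.18 in labelled db/m and 4.44, 4.25 and 4.28 in labelled db/db on its brighter probe. All 6 arrays lay close together, and the difference of -0.09 ± 0.11 (SE) was 0.044 after quantile normalization and 0.050 with slide as a block. The dimmer probe gave 1.19, 1.92 and 1.53 against 1.43, 1.42 and 2.49, with array db/db 3 the highest and a difference of -0.23 ± 0.33 (SE).

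Scnn1g, the gamma subunit, gave 1.91, 2.02 and 1.79 in labelled db/m and 2.32, 2.31 and 1.98 in labelled db/db. Array db/m 2 was just above array db/db 3, and the difference was -0.30 ± 0.14 (SE). Its sign was negative under every scaling tried. Scnn1b, the beta subunit, gave -3.80, -2.90 and -3.19 in labelled db/m and -3.49, -4.05 and -3.39 in labelled db/db. It was dim, and not well above background on array db/db 2. The difference of Scnn1b was 0.35 ± 0.27 (SE), and -0.41 with slide as a block.

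Hsd11b2 encodes the enzyme that inactivates glucocorticoid in principal cells. Its log2 signal was -0.25, -0.45 and -0.74 in labelled db/m and 0.08, 0.00 and -0.30 in labelled db/db. Array db/m 1 and array db/db 3 were nearly equal and were the arrays at which the groups overlapped. The difference was -0.41 ± 0.17 (SE), and 0.045 with slide as a block.

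Only slide 1 held both groups, so that the value with slide as a block is the difference of its pair, array db/m 1 minus array db/db 3, with no spread of its own. That value was 1.20 for Avpr2, 1.23 for Aqp2, 1.97 for Aqp4, 1.49 for Slc14a2 and 1.98 for Fxyd4. It was -0.08 for Scnn1g. Array db/m 1 was also one of the arrays on which Avpr2, Aqp2, Aqp4, Slc14a2 and Fxyd4 were highest. The value of this pair is therefore not separate from the difference over all arrays, and nothing further is read from it.

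**Figure D3:**
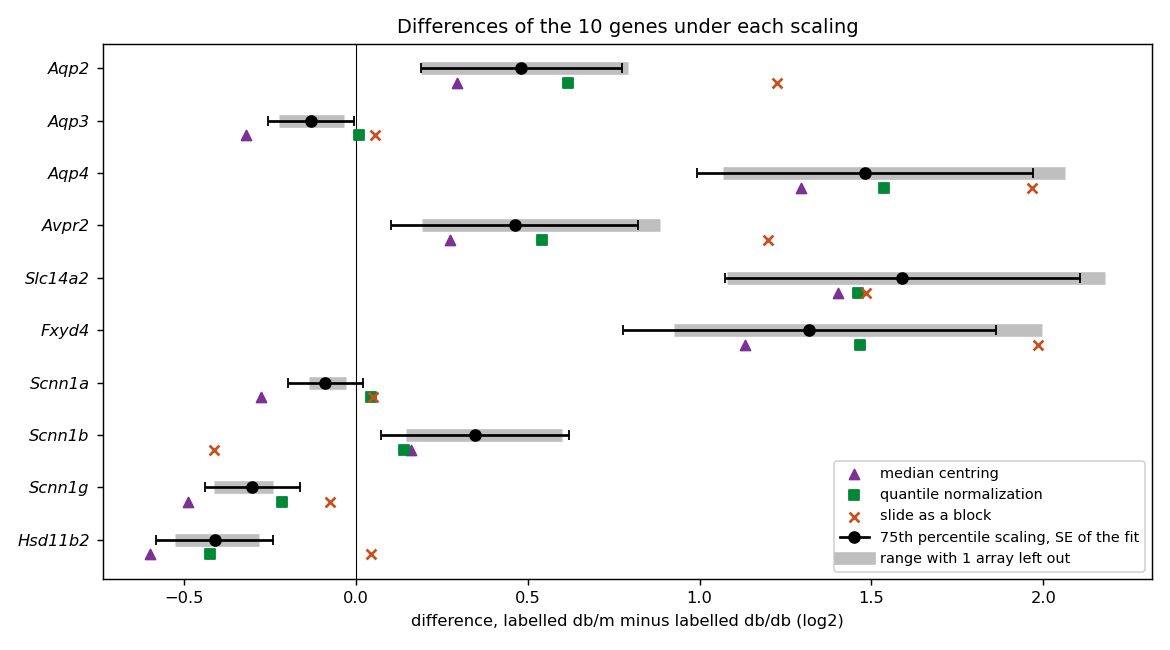
Difference in log2 signal (positive where labelled db/m was higher) of the brightest tested probe of each of the 10 genes. Black points are the values after 75th percentile scaling with the SE of the fit (n = 3 per group), grey bars are the range with each array left out in turn, and coloured marks are other scalings and the fit with slide as a block. Slc14a2, Aqp4, Fxyd4, Aqp2 and Avpr2 were positive in every setting shown, and Aqp3, Scnn1a, Scnn1b and Hsd11b2 changed sign in at least 1.

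The spread within groups differed widely among the 10 genes. The within-group SD of 4 genes lay above the 90th percentile of all tested genes, namely Fxyd4 at percentile 98.5, Slc14a2 at 98.3, Aqp4 at 98 and Avpr2 at 94.4. Scnn1a lay at percentile 14.3 and Aqp3 at 34. The 10 genes therefore spanned both steady and highly variable signals in the same samples.

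The mean levels of genes of the inner medulla and of the response to high tonicity were highest on arrays db/m 1 and db/m 3, as were the variable members. Cells in hypertonic surroundings switch on such genes through the factor NFAT5, and take up or make small organic solutes. The tonicity list had 7 genes, all well above background on 6 arrays. Its mean, centred over the arrays, was 1.18, -0.74 and 0.59 in labelled db/m and -0.13, -0.53 and -0.37 in labelled db/db. The list was lowest on array db/m 2, as was Avpr2, whereas Slc14a2, Aqp4 and Fxyd4 were lowest on array db/db 2. A list of 7 inner medulla genes, put together after values had been seen and sharing 3 genes with the first, gave 1.33, -0.89 and 0.72 against -0.18, -0.67 and -0.31.

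Of the 7 tonicity genes, 6 had a positive difference. The exception was Slc6a6, the taurine carrier, with 5.21, 4.89 and 4.80 in labelled db/m against 5.53, 5.37 and 5.06 in labelled db/db and a difference of -0.35 ± 0.17 (SE). Akr1b3, aldose reductase, which makes sorbitol, gave 5.71, 2.84 and 5.35 in labelled db/m and 3.16, 3.18 and 2.91 in labelled db/db. Slc6a12, the betaine carrier, gave 2.66, -1.81 and 0.90 against 0.45, -1.34 and 0.07. Slc5a3, the myo-inositol carrier, gave 3.81, 1.18 and 2.63 against 1.90, 1.48 and 1.88. Slc6a12 and Slc5a3 were both lowest on the 2 arrays, db/m 2 and db/db 2, on which the Slc14a2 probe at 78342911 was not well above background.

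Markers of other regions varied too. The mean of the 3 tested urothelium markers, of 7 listed, was 0.58, -0.32 and 0.96 in labelled db/m and 0.01, -0.81 and -0.43 in labelled db/db. The other 4, Psca, Upk1b, Upk2 and Upk3a, were not well above background on all arrays of either group. Thick ascending limb markers ranged from -0.58 to 0.71 in labelled db/m and from -0.29 to 0.11 in labelled db/db. Podocyte markers ran the other way, with -0.56, 0.45 and -0.09 against -0.16, 0.31 and 0.06. Proximal tubule markers were -0.59, 0.21 and -0.19 against 0.11, 0.29 and 0.16. The part of these regions in the values of the 10 genes was not tested.

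**Figure D4:**
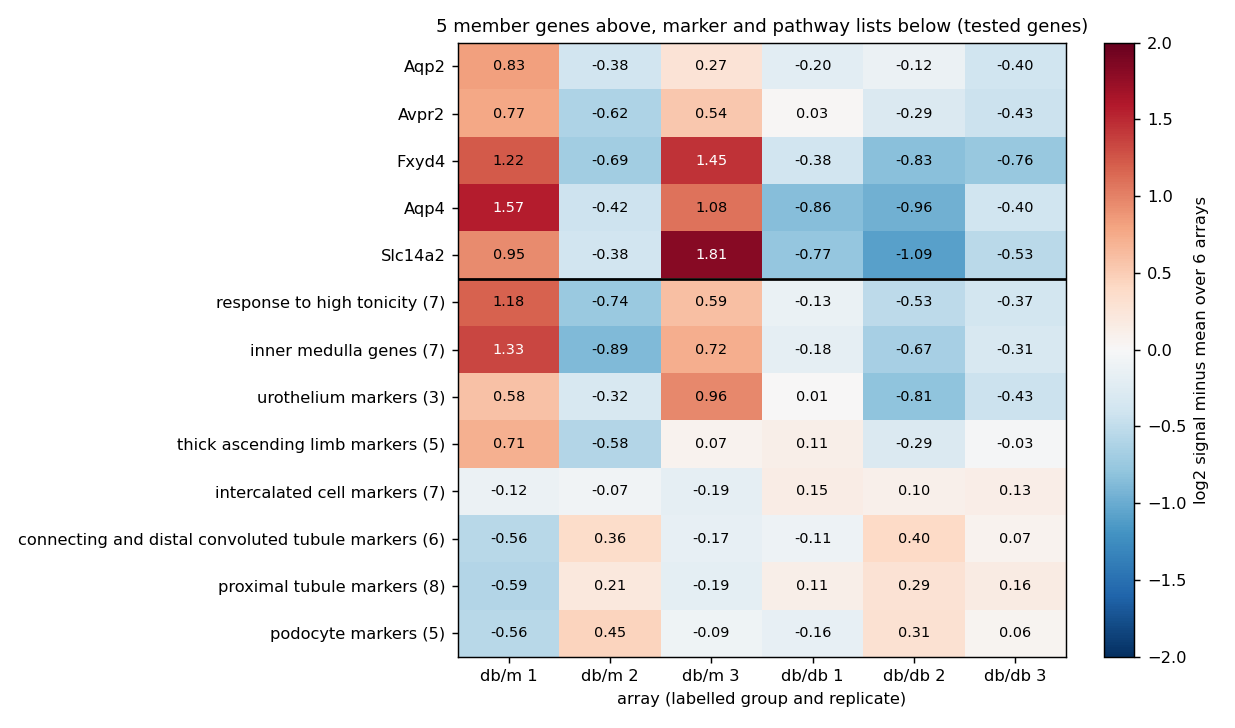
Log2 signal minus the mean over the 6 arrays, by array. Above the line are only the 5 genes that were highest on arrays db/m 1 and db/m 3, and the other members are not shown. Below it are the means of marker and pathway lists (number of tested genes in brackets). Red is above and blue below the mean. Arrays db/m 1 and db/m 3 were above the mean and array db/m 2 below it in the upper rows and in the tonicity and inner medulla lists. Array db/m 2 was the lowest array for Avpr2 and in these lists, but above every labelled db/db array for Slc14a2. The podocyte list was lowest on array db/m 1.

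Krt5, a keratin of basal epithelial cells, was among the markers with an unadjusted p under 0.05, with a difference of 1.53 ± 0.56 (SE). Slc12a3, the thiazide-sensitive sodium chloride carrier of the distal convoluted tubule just upstream of the principal cells, gave 2.40, 2.67 and 2.16 in labelled db/m and 3.25, 3.42 and 3.29 in labelled db/db. All labelled db/m arrays were lower, and the difference was -0.91 ± 0.15 (SE, limma, unadjusted p = 0.00066, adjusted p = 0.24). Slc12a3 was the 1 call among 6 connecting and distal convoluted tubule markers. In intercalated cells, the acid-base partners of principal cells, pendrin (Slc26a4) differed by -0.53 ± 0.16 (SE) and the proton pump subunit Atp6v0d2 by -0.30 ± 0.12 (SE). These were the 2 lower calls among 7 intercalated markers, with 0 higher, and Slc4a1 had a positive difference of 0.35 ± 0.29 (SE). The organic anion carrier Slc22a8, the 1 call among 8 proximal tubule markers, differed by -0.56 ± 0.21 (SE). Of all genes, 6.1% were higher and 9.5% lower at that threshold. None of the genes named here passed adjustment.

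Genes that act with the 10 in the same pathways were taken from 8 lists with 105 genes, of which 99 were tested. With limma 0 of them had an adjusted p under 0.05, also with the equal-variance test and with trend and robust variance, which gave 4 higher and 7 lower, and 6 higher and 10 lower, at an unadjusted p under 0.05. At an unadjusted p under 0.05, 5 were higher in labelled db/m, or 5.05% against 6.1% of all genes, and 8 were lower, or 8.08% against 9.5% of all genes. Over all genes the equal-variance test gave 3.96% higher and 10.5% lower, and trend and robust variance gave 5.82% and 12%. The median difference of the 99 was -0.01. Over all genes, 44.9% of the differences were positive and 55.1% negative. Without array db/m 2 these counts were 26 higher and 14 lower, with 4 past adjustment, while over all genes 10.3% were higher, 13.4% were lower and 0.267% passed adjustment. Without array db/m 3 they were 0 and 0, with 3.09% and 3.42% over all genes. The calls at an unadjusted p under 0.05 were sensitive to the processing. Of the 18 genes named for such a call here and among the markers above, 1, Slc12a3, kept it in all 18 other settings tried.

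Vasopressin signalling and Aqp2 trafficking had 29 tested genes. At an unadjusted p under 0.05, 1 was higher and 2 were lower, beside 6.1% and 9.5% of all genes. Creb1, the factor that cyclic AMP activates at target promoters, gave 0.38, 0.40 and 0.35 in labelled db/m and -0.01, 0.18 and 0.11 in labelled db/db. Its groups did not overlap and its difference was 0.28 ± 0.10 (SE, limma, unadjusted p = 0.029, adjusted p = 0.254). Over the mean of its tested probes it was 0.05 (limma, unadjusted p = 0.662), and with median centring 0.10 (limma, unadjusted p = 0.612). Ezr, which links membrane proteins to actin, differed by -0.35 ± 0.12 (SE), and Stxbp2, a regulator of vesicle fusion, by -0.33 ± 0.14 (SE). After quantile normalization they were -0.18 and -0.22, without the call. Adcy6, an adenylyl cyclase that makes cyclic AMP downstream of the receptor, differed by 0.06 ± 0.17 (SE). The largest difference of the list was 1.44 ± 0.79 (SE) for Prkar2b, a regulatory subunit of protein kinase A, whose groups overlapped.

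Among 10 tested receptors that act on the collecting duct, 0 were higher and 1 lower, beside 6.1% and 9.5% of all genes. The lower one was Sctr, the secretin receptor, with a difference of -0.60 ± 0.21 (SE). Among other aquaporins, 5 genes were tested. Aqp7, a glycerol channel of the proximal straight tubule, was lower on all labelled db/m arrays, with -0.75, -0.56 and -0.94 against -0.46, -0.26 and -0.40. Its difference was -0.38 ± 0.13 (SE, limma, unadjusted p = 0.026, adjusted p = 0.248). Aqp6 of intercalated cells gave 5.12, 3.81 and 4.88 in labelled db/m and 4.03, 3.71 and 3.91 in labelled db/db, again with arrays db/m 1 and db/m 3 at the top. Aqp1 of the proximal tubule and thin limb differed by 0.14 ± 0.17 (SE).

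Aldosterone signalling and ENaC control had 20 tested genes, of which 16 had a negative difference, beside 55.1% of all genes, and 4 were lower at an unadjusted p under 0.05, beside 9.5% of all genes. Sgk1, the aldosterone-induced kinase that keeps ENaC at the membrane, gave 4.38, 4.82 and 4.80 in labelled db/m and 5.35, 5.25 and 4.83 in labelled db/db. The groups came close at array db/m 2 and array db/db 3 without overlapping, and the difference was -0.48 ± 0.19 (SE, limma, unadjusted p = 0.041, adjusted p = 0.271). After quantile normalization it was -0.31 (limma, unadjusted p = 0.119), and the call held in 7 of the 18 other settings. Prss8, a protease that activates ENaC, differed by -0.46 ± 0.18 (SE). Wnk1, a kinase that controls distal salt carriers, differed by -0.44 ± 0.14 (SE), and by -0.19 over the mean of its tested probes (limma, unadjusted p = 0.226). Cul3, which takes part in the breakdown of WNK kinases, differed by -0.39 ± 0.13 (SE), and lost the call with slide as a block. The aldosterone receptor Nr3c2 differed by -0.09 ± 0.13 (SE), and Nedd4l, which marks ENaC for removal, by -0.06 ± 0.12 (SE). In the list 0 genes were higher, beside 6.1% of all genes. The 20 genes had a median of -0.15, beside -0.04 for all genes.

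Of 8 potassium channel and sodium pump genes, 0 passed the unadjusted threshold, beside 6.1% higher and 9.5% lower of all genes. Kcnj1, the secretory potassium channel ROMK, differed by 0.31 ± 0.21 (SE). Among 14 transcription factors and Notch genes, 12 had a positive difference, beside 44.9% of all genes, and 2 were higher at an unadjusted p under 0.05, beside 6.1% of all genes. Gata3, a factor of the collecting duct lineage, gave 3.23, 2.89 and 3.44 in labelled db/m and 2.80, 2.86 and 2.73 in labelled db/db, without overlap. Its difference was 0.39 ± 0.16 (SE, limma, unadjusted p = 0.043, adjusted p = 0.274). Jag1, a Notch ligand, differed by 0.46 ± 0.17 (SE). With median centring Gata3 was 0.20 and Jag1 0.27, both without the call. Elf5, a principal cell factor, had overlapping arrays and a difference of 1.41 ± 0.87 (SE). None of the 6 tested epithelial genes passed, beside 6.1% higher and 9.5% lower of all genes.

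The tonicity genes had 2 of 7 higher at an unadjusted p under 0.05, beside 6.1% of all genes. Nfat5, the factor that senses tonicity and is known to act on the Aqp2 gene, gave 2.35, 1.26 and 2.16 in labelled db/m and 1.35, 1.03 and 0.86 in labelled db/db. Array db/m 2 fell under array db/db 1, and the difference was 0.84 ± 0.30 (SE, limma, unadjusted p = 0.026, adjusted p = 0.248). Hspa4l, a heat shock protein induced by high tonicity, differed by 0.32 ± 0.12 (SE) without overlap, and by 0.13 with median centring, without the call. The list had a median difference of 0.80.

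**Figure D5:**
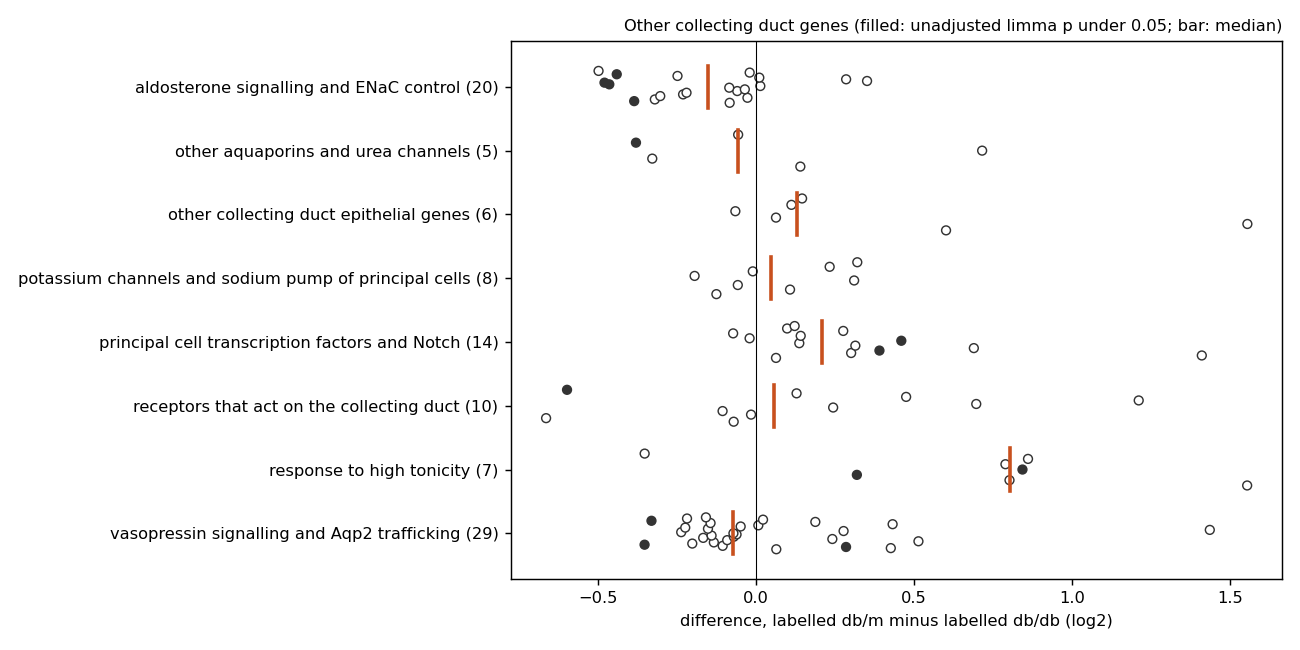
Difference in log2 signal (positive where labelled db/m was higher) of every tested gene in 8 pathway lists (number tested in brackets). Each point is a gene, filled where the unadjusted limma p was under 0.05, and the bar is the list median. The 20 aldosterone and ENaC genes had a median of -0.15 and the 7 tonicity genes a median of 0.80, and 0 of the 99 genes passed adjustment.

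The genes whose profile lay closest to that of Aqp2 were found from the root mean square distance between profiles centred over the 6 arrays. They were Gpr182 at 0.09, Kcnj5 at 0.09, Jazf1 at 0.10, Morn5 at 0.11 and Naaladl2 at 0.11 log2 units. Gpr182 gave 1.06, -0.11 and 0.58 in labelled db/m and 0.22, 0.33 and 0.04 in labelled db/db. Of the other members Avpr2 was the closest, at 0.19, which was rank 176 among all tested genes. Scnn1a followed at 0.43 with rank 5015, and Aqp3 at 0.47 with rank 6789. Slc14a2 was the farthest member, at 0.78. The distance reads size as well as order. Slc14a2 and Fxyd4 varied more than Aqp2, and Scnn1a and Aqp3 varied less.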

How the data were processed

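Total RNA was amplified, labelled with Cy3 and hybridised to 1-colour Agilent arrays. The authors deposited, for each array, the background-subtracted intensity of each spot from Feature Extraction 10.7.1.1 and a matrix of log2 values with the same distribution in every array. Their test of the arrays is not given in the sources used here. The analysis used limma 3.58.1 under R 4.3.3. It dropped control spots and all spots that the software marked as outliers, which removed 135 probes. Spots of a probe were averaged on the log2 scale, and every array was scaled to its 75th percentile. Of 56605 probes, 29890 were tested with lmFit and eBayes over all 6 arrays and adjusted by Benjamini-Hochberg. The number of arrays, 3 per group, limits the precision. Symbols came from accessions in the RefSeq gene table for 32903 probes and otherwise from the files. Exon or UTR positions of probes are not given, because no annotation of mm9 was used here.

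The genes and all lists were chosen with earlier results of these data known. Named were every member with every probe, list genes with an unadjusted p under 0.05, and the 5 genes nearest to Aqp2. A gene that this rule covers is not reported here and stays in the counts. Akr1b3, Slc6a12, Slc5a3, Slc6a6, Aqp1, Aqp6, Adcy6, Prkar2b, Nr3c2, Nedd4l, Kcnj1 and Elf5 were named after their values had been seen. Alternatives were other scalings, the deposited matrix, normexp background correction with an offset of 50, other filters and probe choices, slide and replicate number as blocks, other tests, and leaving out arrays. The procedure was tested on simulated data. The labels do not say whether replicate numbers pair the samples, and the main fit did not pair them.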

Additional observations from a re-analysis of the deposited data

How the results depend on the processing

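The median difference of the 10 genes, 0.40, stayed positive in every setting, from 0.19 without array db/m 1 to 0.63 with slide as a block. Signs changed for 4 of the genes. Aqp3 was 0.010 after quantile normalization, 0.011 in the deposited matrix and 0.055 with slide as a block. Scnn1a was 0.044, 0.043 and 0.050 in the same order. Hsd11b2 was 0.045 and Scnn1b -0.41 with slide as a block. Leaving out replicate 2 of both groups, a setting chosen after seeing the data, gave -0.055 for Scnn1b.

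Of the pathway genes, 5 were higher at an unadjusted p under 0.05, and this count was 10 after quantile normalization, 11 in the deposited matrix, 10 with normexp, 2 with median centring, 2 with no filter on dim probes and 21 without replicate 2 of both groups. Over all genes the shares higher were 6.1% in the main fit and 5.57%, 5.55%, 5.05%, 2.93%, 4.11% and 7.78% in the same order. The count of 8 lower was 4 after quantile normalization, 4 in the deposited matrix and 14 with median centring. It was 5 with no filter and 3 with slide as a block. Over all genes the shares lower were 9.5% in the main fit and 7.95%, 7.93%, 17.8%, 4.08% and 5.29% in the same order. These counts are of 99 pathway genes, or 104 with no filter. With 1 array left out at a time the median of the members ranged from 0.19 to 0.47, the higher genes from 0 to 26, the lower genes from 0 to 14 and the genes past adjustment from 0 to 4, the highest count each time without array db/m 2. With 1 array left out the shares over all genes ran from 3.09% to 10.3% higher and from 3.42% to 13.4% lower. For genes past adjustment they ran from 0% to 0.267%. The causes were not tested. The replicate block gave 6 higher, 9 lower and 0 past adjustment, with the member median at 0.40. Over all genes that block gave 7.52% higher and 12.4% lower. Pairing by number was looked at in the deviations of each tested probe from its group mean, not in the signals themselves. Between the groups, these deviations correlated at 0.35, 0.15 and 0.05 for same-numbered arrays. For arrays of different numbers they correlated at -0.34 to 0.15. Slc14a2 was 1.08 with normexp.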
